A study of Homo sapiens with 6 samples.

Results

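The subject is the untreated wild type arm of a HEK293T series: 3 of its 6 RNA libraries, chosen by the wild type column names of the deposited gene count table, and all 58721 annotated genes of that table, without its 4 spike-in rows. HEK293T is an established human embryonic kidney line that carries adenovirus genes and the SV40 large T antigen. The series set it against a double knockout of FTO and ALKBH5, which erase N6-methyladenosine and related marks from RNA; the knockout libraries were not used here. The labels give the wild type cells no treatment and call the 3 samples independent biological replicates. Their columns bear the name HEK293G6, which the labels leave unexplained, and the viral genes that define the line are not rows of the table, so the label was read against the expressed lineage genes only.

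The cells were opened with the detergent Triton X-100 in the presence of cycloheximide, which holds ribosomes on their mRNA, and the lysate was cleared by centrifugation. The lysate was thus prepared as a cytoplasmic one, but the share of nuclear RNA in it was not measured. Ribosomal RNA was depleted and no selection for poly(A) tails was made, so RNAs without a tail, such as replication-dependent histone mRNAs and spliceosomal RNAs, stay in the library. A cell line is described by which lineage regulators, enzymes and receptors it transcribes, because these set which pathways can be studied in it.

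The libraries held 7400110, 7551825 and 5634648 counts in genes. Levels are given as CPM, counts per 1000000 counts of the library, and as TPM, counts per base of merged exons scaled to 1000000 per library, where genes of different length are set side by side. A gene was taken as expressed at 1 CPM or more in all 3 libraries, as low with counts below that, and as undetected with 0 counts. Over the 20586583 counts together, 0 counts allow a level of up to 0.146 CPM (3 counts), for counting error only. Values are mean ± SD over the 3 libraries unless 3 values are given, which follow replicates 1, 2 and 3. Between pairs of libraries, log2 CPM of the 14013 expressed genes correlated at 0.993 or 0.994 (Pearson, across genes, which are not independent replicates).

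A count of 0 in this table has more than 1 meaning. Of the 19940 protein-coding genes, 4066 had no count. All 626 protein-coding genes whose whole body, from first to last annotated base, lies inside other genes of the same strand were among them. Where part of the body was free, the share at 0 fell from 57.9% (427 of 737 genes with up to 10% of the body free) to 3.87% (139 of 3592 with over 90% but not all of it free), and it was 19.8% among the 13532 genes with no overlap. Genes lying wholly inside genes of the opposite strand only did receive counts, 520 of 875. Of 266 protein-coding genes with no exon base but at least 1000 intron bases outside same-strand genes, 219 had counts. The table thus behaves as counts over whole gene bodies, read by strand, from which reads in shared stretches were dropped.

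**Figure D1:**
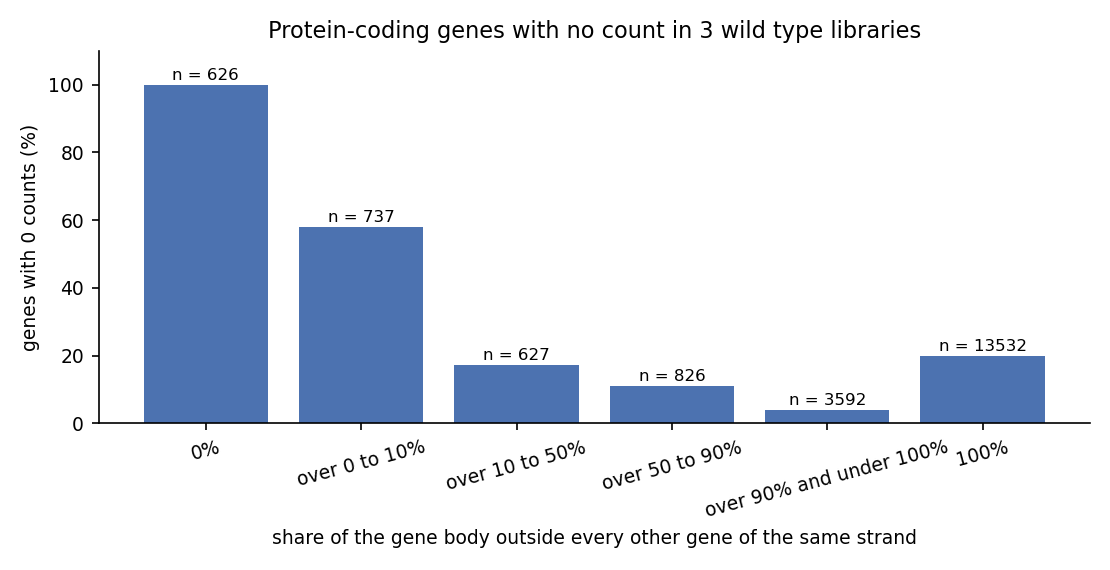
Percent of protein-coding genes with 0 counts in the 3 wild type libraries (vertical axis), by the share of the gene body outside all other annotated genes of the same strand (horizontal axis, number of genes above each bar). All 626 genes without a free base are at 0, and the share is 57.9%, 17.2%, 11% and 3.87% in the following bins before it reaches 19.8% for genes with no overlap.

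Widely used and tissue-specific genes alike were hidden in this way. ALDOA, the aldolase of glycolysis, ADSL, an enzyme of purine synthesis, ASNS, asparagine synthetase, CALM2, a calmodulin gene, and SOX2 all had 0 counts, and TUBB3, the neuronal beta-tubulin, had 1 count. LDHB, the second lactate dehydrogenase subunit, had 2 counts over 3 libraries. All 7 genes lie mostly within same-strand neighbours. Nothing about the expression of these genes can be read from the table. Absence is therefore stated below only for assessable genes: those with at least 50% of their exon bases and of their coding bases outside other genes of the same strand, and at least 50% of their 50-base transcript words found in no other gene. Of all genes, 44929 were assessable, and of protein-coding genes, 17222. Of these 17222, 11531 were expressed (67%), 3218 were low and 2473 undetected. The median level of the assessable protein-coding genes was 11.7 TPM. Both this median and the 67% are the background against which the gene lists below, other than the noncoding ones, are read. As introns were counted too, TPM also holds intron reads, and a long gene can pass 1 CPM at a very low level per length: MAP2, a protein of neuronal microtubules, reached 0.407 ± 0.0799 TPM with 28 counts in all.

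Protein-coding genes took 95.7% ± 0.0646 of the counts. Genes of long noncoding classes took 1.92% ± 0.00863, and pseudogenes 0.516%. The 10 highest genes held 3.83% ± 0.0303 of all counts and the 1000 highest 41.8% ± 0.222, so that no few transcripts dominated the libraries. Highest by counts were the mitochondrial ribosomal RNAs MT-RNR2 (7958, 7765 and 7821 CPM) and MT-RNR1 (6194, 6234 and 6217 CPM), followed by MT-CO3, a subunit of cytochrome oxidase, at 4665, 4852 and 4695 CPM. The spread over libraries was under 5% of the level for each. Next came the elongation factors EEF2 (3159 ± 34.8 CPM) and EEF1A1 (2989 ± 54.7 CPM), which carry the ribosome along the mRNA and bring it charged tRNA, and the chaperone HSP90AA1 (2856 ± 4.49 CPM). MT-CO1, RPS2, RPS4X, NPM1, RACK1, RPL8, ACTG1, RPL5 and RPL4 filled the 15 highest places, between 2781 and 1833 CPM. Apart from HSP90AA1 and ACTG1, these nuclear genes encode parts of the ribosome, factors bound to it or, for NPM1, a nucleolar protein.

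The 13 mitochondrial mRNAs together took 1.01% ± 0.0153 of the counts and were very unequal per length. MT-CO3 stood at 20597 ± 620.0 TPM, MT-CO1 at 6147 ± 164 TPM and MT-CO2 at 4038 ± 119.9 TPM, all subunits of cytochrome oxidase, whereas MT-ND1 and MT-ND2, subunits of complex I, stood at 252 ± 17.2 TPM and 264 ± 12.2 TPM. Both groups are cut from the same long precursor. The share of transcript words found in no other gene was 0.694 for MT-CO3, 0.505 for MT-CO1 and 0.710 for MT-CO2. For MT-ND1 and MT-ND2 it was 0.779 and 0.564, and for MT-CYB 0.988. The rest of these words also stand in other genes, so the levels, their contrast and the summed share are uncertain to that extent. The effect on them was not tested. Ribosomal protein genes, taken by names of RPL or RPS with a number, made up 6.12% ± 0.167 of counts. Of these, 74 of 80 were expressed, against 60.4% of all protein-coding genes. The names leave out RPLP0, RPLP1, RPLP2 and RPSA and include related copies such as RPL39L and RPS27L.

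Histone mRNAs were among the most abundant per merged exon base. That rank depends on the length, as merged exons join all annotated transcripts of a gene. HIST1H3B has 411 merged exon bases at 615 CPM, and RPL37A has 6841 at 1278 CPM. HIST1H1C, a linker histone, reached 7045, 7599.7 and 7341 TPM, and HIST1H3B, a core histone H3 gene, 5002, 5259 and 5038 TPM; both were in the 15 highest of the table, with HIST1H1E (5035 ± 271 TPM) and HIST1H4C (4649.9 ± 190.3 TPM). Most of the other 15 were short: RN7SL3 (13509 ± 912 TPM), the spliceosomal RNAs RNU4-2, RNU5A-1, RNU4-1 and RF00003 and the Y RNAs RNY4 and RNY1, between 13414 and 5992 TPM. The 71 genes of the replication-dependent histone clusters took 1.12% ± 0.0326 of the counts. Of the 71, 41 were expressed and 16 had 0 counts. Only 54 were assessable, so these 0 counts do not all show absence. Of all protein-coding genes, assessable or not, 60.4% were expressed. Replication-dependent histone genes are switched on when DNA is copied, and their mRNAs end in a stem-loop in place of a poly(A) tail.

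HEK293T is often described as a kidney epithelial line, and also as neuron-like or adrenal-like. Genes that pattern the early kidney were the best represented renal list. Of its 22 members, 21 were assessable, 15 of them expressed, 4 low and 2 undetected. The expressed share, 71.4%, lay near the 67% of all assessable protein-coding genes. The list's median of 4.28 TPM lay below the 11.7 TPM of those genes. HOXA11 (54.7, 54.9 and 60.8 TPM), which acts in the mesenchyme of the forming kidney, was highest. SIX2, which keeps nephron progenitors undifferentiated, stood at 28.7, 29.4 and 32.2 TPM, and its partner SALL1 at 22.8, 20.0 and 21.5 TPM. The 3 libraries differed little in these genes. PAX2, the classical renal lineage factor, was far lower (1.85, 1.75 and 1.82 TPM), as were WT1 (2.53 ± 0.877 TPM) and LHX1 (2.12 ± 0.589 TPM). PAX8, needed for tubule epithelium, had 0 counts and was assessable. FOXD1, a stromal progenitor factor, stood at 34.6 ± 1.98 TPM.

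Genes of mature kidney segments were represented unevenly. In the list for the loop, distal tubule and collecting duct, 0 of 15 assessable genes was expressed: UMOD, which encodes uromodulin, and SLC12A1, the salt cotransporter of the loop, had 0 counts, and AQP2, the water channel of the collecting duct, had 1 count. The proximal tubule list had 5 of 13 expressed, led by the phosphatase ALPL (13.7, 13.8 and 11.9 TPM). Its endocytic receptors CUBN and LRP2 stood at 1.78 ± 0.181 TPM and 0.911 ± 0.255 TPM, and the glucose transporter SLC5A2 had 0 counts. The transporter genes SLC22A6 and SLC34A1 had 7 and 3 counts. Of the 10 podocyte genes, 4 were expressed. The highest, PODXL, codes for a charged surface protein that many cells make and stood at 6.17 ± 0.208 TPM; NPHS1, the slit diaphragm protein nephrin, had 3 counts.

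Few genes of the adrenal lists were expressed, and those few are also used in other tissues. For steroid synthesis 2 of 13 genes were expressed, FDX1 (57.0 ± 3.59 TPM) and FDXR (38.2 ± 2.12 TPM), which pass electrons to mitochondrial P450 enzymes in many tissues. NR5A1, the master factor of adrenal cortex, had 19 counts over the 3 libraries, CYP11A1 and CYP17A1 4 each, and MC2R, the receptor for corticotropin, 0. STAR, which brings cholesterol into mitochondria, had 3. Of 14 assessable chromaffin and sympathetic genes, 3 were expressed, GATA2 (31.2, 31.3 and 30.8 TPM), ISL1 (21.8, 18.8 and 19.9 TPM) and HAND2 (2.66 ± 0.444 TPM), which are also used outside this lineage. TH, the first enzyme of catecholamine synthesis, had 0 counts. CHGA, the vesicle protein chromogranin A, had 19. DBH and PNMT, the later enzymes of the pathway, had 2 and 8 counts.

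Neuronal genes were present but incomplete. UCHL1, a ubiquitin hydrolase of neurons, stood at 233, 256 and 230.0 TPM. The neurofilament genes NEFL (80.2, 79.1 and 68.0 TPM) and NEFM (28.9, 28.9 and 26.3 TPM) and the related INA (21.9 ± 1.71 TPM) were expressed, as were the vesicle proteins SYP (19.6 ± 1.01 TPM) and SYT1 (14.1 ± 1.32 TPM). Within each of these genes the libraries lay close together. Of 20 assessable neuronal genes, 12 were expressed, a share of 60.0%, which lies below the 67% of all assessable protein-coding genes. NEFH, the third neurofilament gene, and DCX, of migrating neurons, had 0 counts, and the RNA-binding proteins ELAVL3 and ELAVL4 had 3 and 1. SNAP25, of the synaptic fusion machinery, had 8 counts, and RBFOX3, the neuronal nuclear antigen, stood at 1.56 ± 0.266 TPM. Neural progenitor genes gave 4 of 10, with SOX4 at 96.3 ± 1.44 TPM and MSI1 at 65.8 ± 3.25 TPM. PAX6 (3.62 ± 0.259 TPM) and NES (1.30 ± 0.377 TPM) were lower, and SOX1 had 0 counts. In the glial list OLIG2 (7.72, 8.30 and 6.77 TPM) alone of 10 genes was expressed. GFAP, the astrocyte filament, had 3 counts and SOX10, of oligodendrocytes and Schwann cells, 0.

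**Figure D2:**
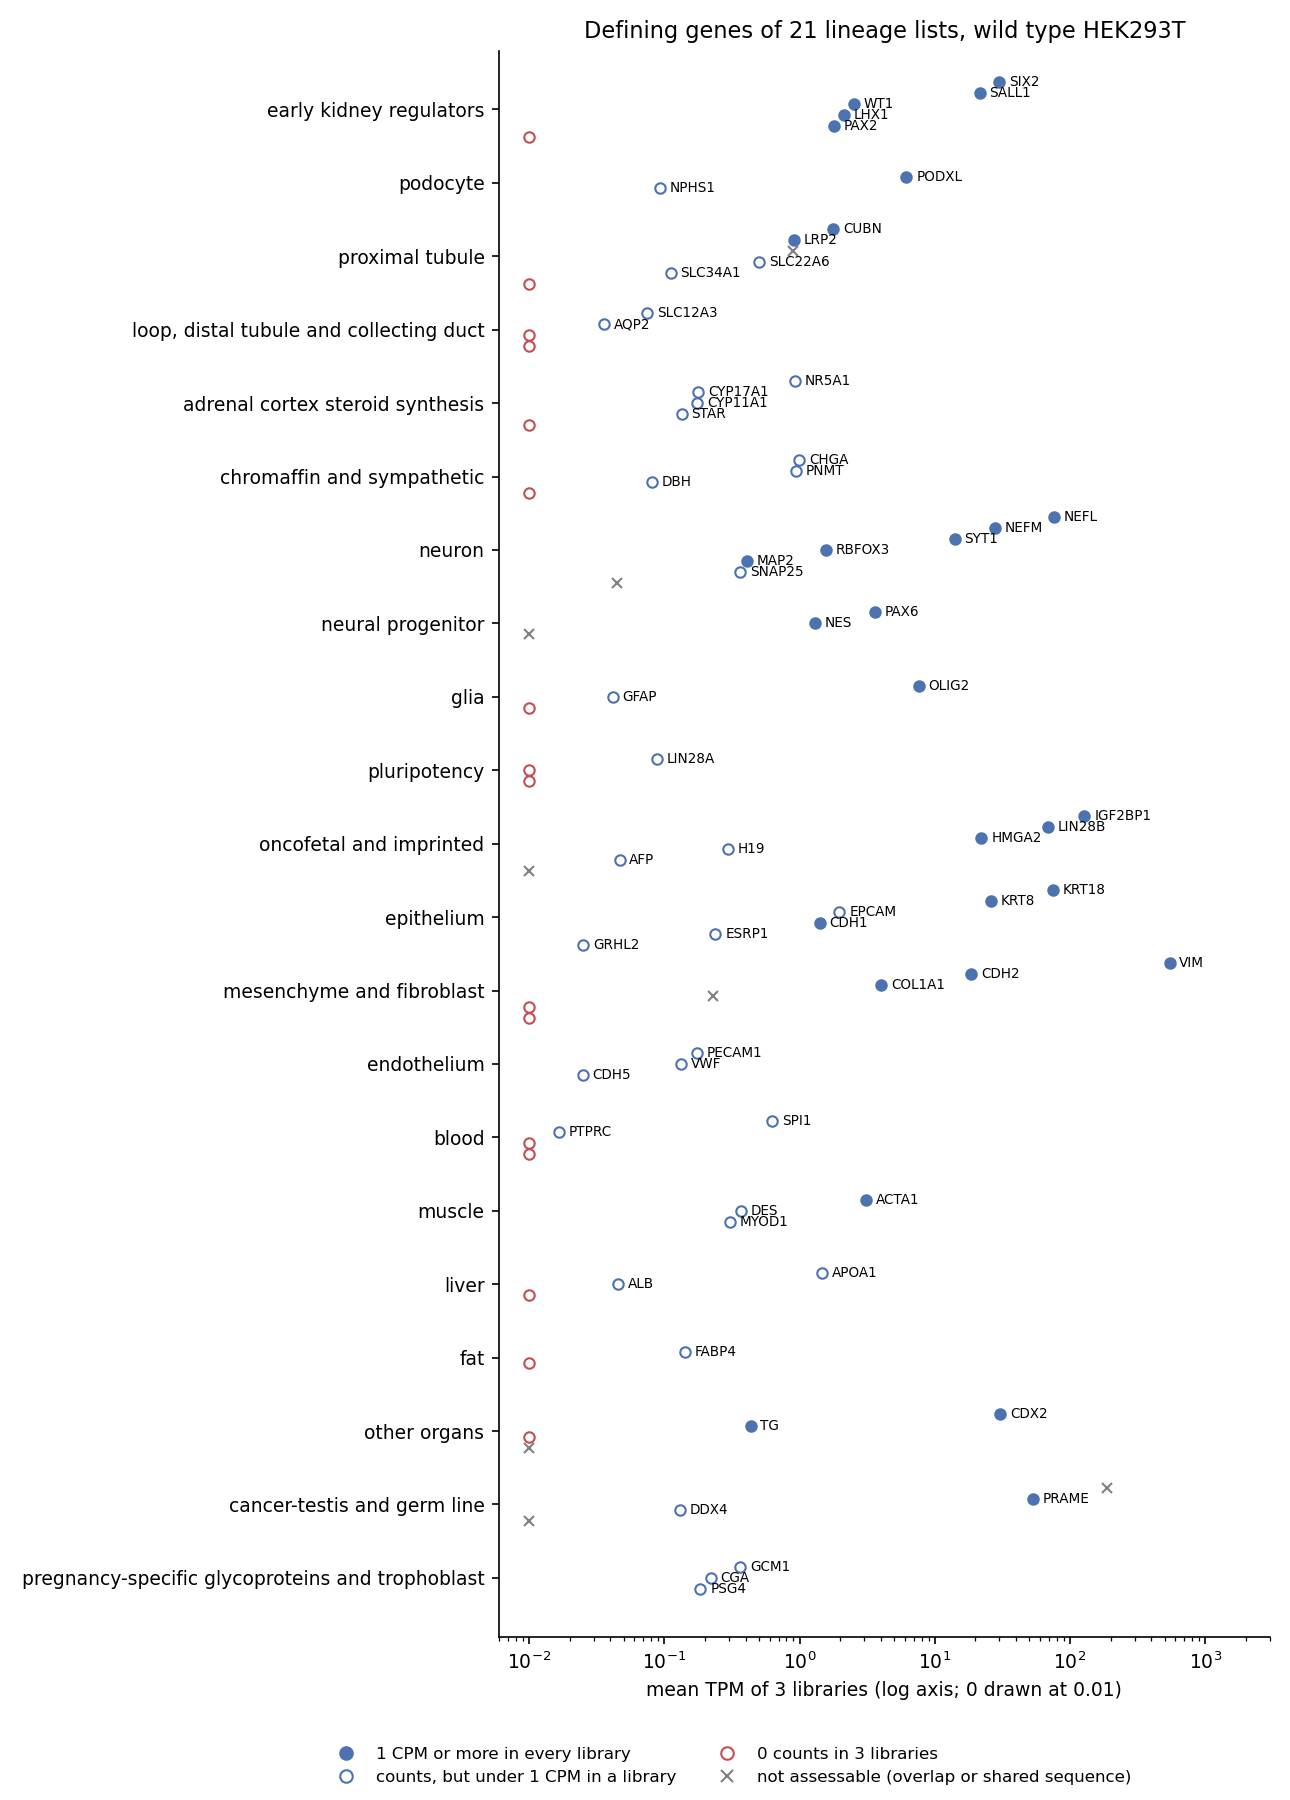
Mean TPM (horizontal log axis, 0 drawn at 0.01) of the defining genes of 21 lineage lists. Filled circles are genes at 1 CPM or more in all 3 wild type libraries, open blue circles have counts below that, open red circles have 0 counts and grey crosses are genes the table cannot assess. VIM at 546 TPM and IGF2BP1 at 128 TPM lie far to the right, while the endothelial, blood, liver and trophoblast rows hold no filled circle.

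Oncofetal genes are active in embryos and silent in most adult tissues, and single members of this list were high. HMGA1, a chromatin protein, stood at 318, 338 and 309 TPM, and its relative HMGA2 at 21.3, 22.9 and 22.2 TPM. The mRNA-binding proteins IGF2BP1 (131, 129 and 124 TPM), IGF2BP2 (43.2 ± 2.90 TPM) and IGF2BP3 (40.2 ± 0.950 TPM) were all expressed, and so was LIN28B (70.0, 68.8 and 68.5 TPM), which blocks maturation of let-7 microRNAs; LIN28A had 2 counts. Of 15 assessable genes in this list, 9 were expressed (60.0%, against 67% of all assessable protein-coding genes), with a median of 12.7 TPM beside 11.7 TPM. H19 and AFP, by contrast, had 5 counts and 1 count. The pluripotency factors POU5F1 and NANOG had 0 counts, so LIN28B, DNMT3B (47.9 ± 1.41 TPM), TRIM71 (6.24 ± 0.449 TPM), KLF4 (5.05 ± 0.352 TPM) and SALL4 (0.764 ± 0.176 TPM) were the expressed members of that list.

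The epithelial and mesenchymal lists split within themselves. VIM, the intermediate filament vimentin, stood at 538, 569.5 and 529.7 TPM, and the transcription factor SNAI2 at 126, 127 and 116 TPM. CDH2, N-cadherin, reached 18.5 ± 1.12 TPM, against 1.41 ± 0.185 TPM for CDH1, E-cadherin. The keratins KRT18 (71.3, 81.0 and 72.7 TPM) and KRT8 (24.2, 28.1 and 25.6 TPM) of simple epithelia were expressed, but KRT19, KRT7, KRT5 and KRT14 had 0 counts, and the epithelial splicing factor ESRP1 had 7. EPCAM stood at 1.97 ± 0.712 TPM and GRHL2, a master factor of epithelia, had 1 count. In total 6 of 18 epithelial genes (33.3%) and 13 of 20 mesenchymal genes (65.0%) were expressed. The mesenchymal share lay near the 67% of all assessable protein-coding genes, and the epithelial share below it. The list medians, 0.192 TPM for epithelium and 3.56 TPM for mesenchyme, both lay below the 11.7 TPM of those genes. ZEB1 (17.7 ± 1.06 TPM) and TWIST1 (13.2 ± 1.20 TPM), which drive mesenchymal change, were among the expressed mesenchymal genes. Fibroblast matrix genes were low or missing: COL1A1 stood at 4.02 ± 0.472 TPM, and COL1A2, DCN and THY1 had 0 counts.

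Markers of most other cell types lay near the floor. Of assessable genes, 1 of 10 endothelial, 1 of 13 blood, 0 of 8 liver and 0 of 13 trophoblast genes were expressed; the exceptions were ESAM (2.40 ± 0.511 TPM) and TAL1 (0.878 ± 0.138 TPM). The summed level of the blood list ranged from 3.84 to 4.73 CPM over the libraries; HBB and CD3E had 0 counts and PTPRC, the pan-leukocyte gene, had 1. ALB, albumin, had 1 count, FGB, fibrinogen, 0 and PECAM1, of endothelium, 8. The liver list summed to at most 1.62 CPM and the endothelial list to at most 4.24 CPM. Muscle genes passed in 4 of 13 cases, but MYOD1 and DES had 3 and 5 counts. In bulk RNA, a few cells of a type and little RNA in every cell cannot be told apart.

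Several regulators were expressed while chosen genes of the tissue they are known for had few or no counts. In the muscle, other organs and fat lists, 4 of 13, 4 of 12 and 2 of 7 assessable genes were expressed. These shares lay below the 67% of all assessable protein-coding genes, but other members than those named here can be among them. NKX2-5, a heart factor, was at 62.2, 60.5 and 64.4 TPM, while the heart proteins TNNT2 and MYH7 had 0 counts. CDX2, which specifies intestine, was at 30.6 ± 0.971 TPM, while MUC2 had 0 counts and VIL1 2. PPARG, the fat-cell receptor, was at 30.4, 29.7 and 27.3 TPM, while ADIPOQ had 0 and FABP4 1 count. Each factor was steady over the 3 libraries.

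Cancer-testis antigens, germline genes that tumours often express, were high for a few members only. MAGEA1 was at 152, 166 and 178 TPM and PRAME at 47.1, 52.8 and 59.2 TPM; they were 2 of 18 assessable members that passed. MAGEA3 (187 TPM) and MAGEA6 (164 TPM) share most of their sequence, so the split of reads between them is uncertain. MAGEA4, MAGEC2 and the meiotic gene BRDT had 0 counts. DDX4, the germ cell helicase, had 3.

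HOX genes give cells their position along the body axis and lie in 4 clusters. Of 39 genes, 22 were assessable and 18 of those expressed, 81.8% against 67% of assessable protein-coding genes, at a median of 22.8 TPM. The highest were HOXD10 (199, 184 and 182 TPM) and HOXD13 (117, 118 and 114 TPM), both near the posterior end of the HOXD cluster. HOXB7 (66.8 ± 5.15 TPM) and HOXC4 (58.9 ± 3.52 TPM) followed. Group 13, the most posterior, was expressed in all 4 clusters: HOXA13 at 31.9 ± 2.60 TPM, HOXB13 at 27.4 ± 1.53 TPM and HOXC13 at 22.8 ± 2.97 TPM beside HOXD13. Anterior genes were expressed as well, HOXA3 at 27.9 ± 2.91 TPM and HOXB3 at 31.6 ± 1.07 TPM. HOXB1 and HOXC12 had 0 counts, and HOXD1 and HOXD12 had 3 counts each. The other 17 lie within or across long same-strand transcripts of their clusters, and 14 of them were listed at 0; HOXA5, HOXA10, HOXB9 and HOXC8 are examples for which the table gives no information.

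**Figure D3:**
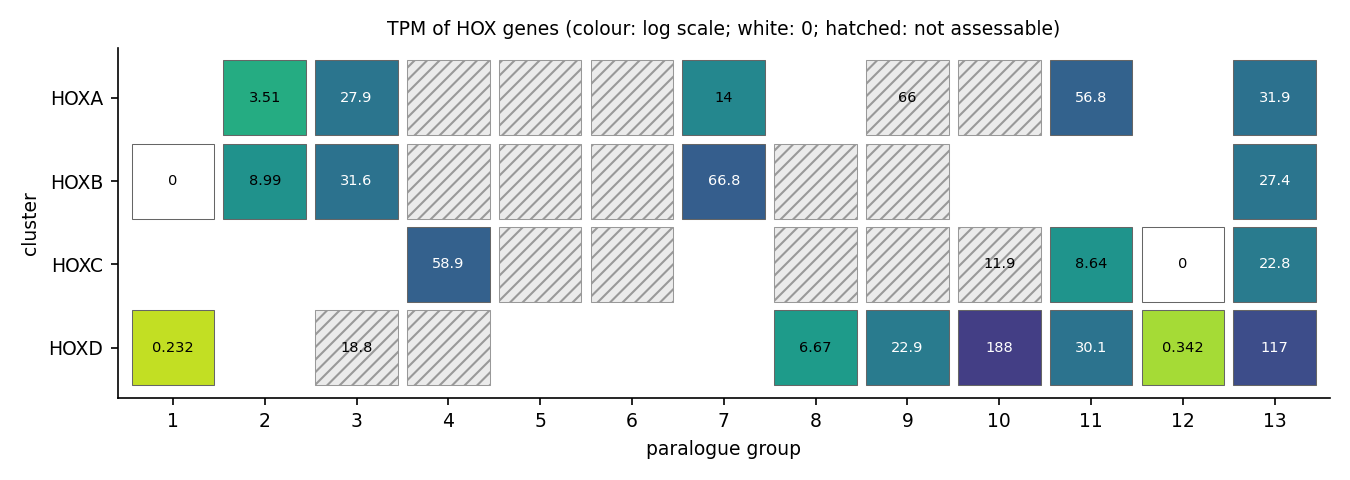
TPM of HOX genes by cluster (rows) and paralogue group (columns), mean of 3 wild type libraries, with colour on a log scale. Hatched boxes are genes the table cannot assess (a number is shown where they had counts) and white boxes are 0. Group 13 is filled in all 4 rows, from 22.8 to 117 TPM, and the hatched boxes fill most of groups 4 to 6.

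Glycolysis splits glucose to pyruvate, and of 29 assessable genes in its list, 20 were expressed (69.0%, near the 67% of all assessable protein-coding genes). Of the aldolases, ALDOA and ALDOC could not be assessed. GAPDH was highest (2027, 2063 and 2019 TPM), then ENO1 (1044, 1089 and 1016 TPM) and TPI1 (959, 1011 and 910.4 TPM). Undetected members included tissue-specific forms: SLC2A2 of liver and islet, PKLR of liver and red cells, and PGK2 and GAPDHS of sperm. LDHA, which turns pyruvate to lactate, stood at 442, 459 and 438 TPM. LDHC, the lactate dehydrogenase of testis, stood at 17.6, 18.3 and 14.2 TPM. Of the lactate transporters, SLC16A1 stood at 302, 289 and 287 TPM and SLC16A3 had 5 counts.

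The pentose phosphate pathway, which yields NADPH and ribose, passed in 7 of 9 genes, with PGD at 169, 170.3 and 161 TPM, and PYGL, the liver form of glycogen phosphorylase, stood at 191, 184 and 172 TPM.

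The citric acid cycle list had 26 of 27 expressed; the exception was PDHA2, the testis form. Its levels were even, with a median of 78.2 TPM and a highest value of 201 ± 4.03 TPM for IDH3B, a subunit of isocitrate dehydrogenase. Serine and one-carbon enzymes, which feed nucleotide synthesis, were expressed in 11 of 11 cases with a median of 129 TPM. PSAT1, the aminotransferase of serine synthesis, led with 468, 476 and 471 TPM, and MTHFD2, the mitochondrial folate enzyme, had 269, 281 and 268 TPM. TYMS, thymidylate synthase, stood at 190.2 ± 7.03 TPM and PHGDH, the first step of serine synthesis, at 143 ± 0.773 TPM. Nucleotide genes followed suit at 17 of 18, with the salvage enzyme HPRT1 at 603, 614 and 607 TPM and PAICS of purine synthesis at 357 ± 5.70 TPM. In polyamine synthesis, which feeds growing cells, ODC1 stood at 324, 334 and 329 TPM, SMS at 265 ± 6.71 TPM and SRM at 229 ± 15.5 TPM. Fat synthesis genes SCD (519, 509 and 517 TPM), ACLY (398 ± 2.49 TPM) and FASN (213 ± 4.95 TPM) were high, and cholesterol synthesis was expressed in 13 of 14 genes, with FDPS at 201 ± 5.46 TPM and SQLE at 158 ± 1.98 TPM.

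Genes of liver and kidney metabolism were mixed. G6PC, which releases glucose, had 0 counts and PCK1, of gluconeogenesis, had 1, although the mitochondrial form PCK2 stood at 39.2 ± 1.23 TPM. Of 8 genes for amino acid breakdown in liver, 2 were expressed. ARG1 of the urea cycle had 0 counts, CPS1 stood at 15.7, 13.9 and 16 TPM and ARG2, the mitochondrial counterpart of ARG1, at 67.0 ± 2.53 TPM. Drug metabolism genes were expressed in 8 of 15 cases. GSTP1, a glutathione transferase, was at 599, 659.8 and 582 TPM, whereas CYP3A4, CYP1A2 and UGT2B7 had 0 counts. Of creatine genes, the transporter SLC6A8 stood at 86.7, 95.9 and 87.1 TPM, and GATM, the first enzyme of creatine synthesis, at 0.831 ± 0.180 TPM.

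Where related genes make interchangeable proteins, 1 member usually supplied nearly all transcripts. Shares are of the family's summed TPM among assessable members. In 15 of 22 families with at least 2 assessable members, 1 gene held over 90%. CKB, the creatine kinase of brain, made up 100.0% ± 0.0217 of its pair with the muscle form CKM, at 879.9 ± 21 TPM. Of the thymosins, small actin-binding proteins, TMSB10 held 94.0% ± 0.547 (1623, 1915 and 1751 TPM), TMSB15A 5.43% ± 0.651 and TMSB4X, which binds actin in many blood cells, 0.530% ± 0.108. EEF1A2, the elongation factor of muscle and neurons, gave 5.18% ± 0.0494 beside EEF1A1. RPL39L, a ribosomal protein copy known from testis, gave 5.10% ± 0.256 beside RPL39. SLC25A5 held 98.6% ± 0.0361 over SLC25A4, the heart and muscle form of the ADP/ATP carrier, and CRABP2 held 99.9% ± 0.256 over CRABP1.

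Other families were shared. HK1 and HK2, the hexokinases, held 56.3% ± 1.39 and 42.9% ± 1.40. The phosphofructokinases PFKM, PFKP and PFKL held 38.0% ± 1.86, 31.1% ± 1.56 and 30.8% ± 0.303 per merged exon base. By that length, PFKP and PFKL did not differ beyond their spread over libraries. In counts alone the 3 genes had 2290, 1226 and 2251, on 7318, 4836 and 8926 exon bases. The order of PFKP and PFKL thus depends on the length, which the SD does not hold. ACTG1 supplied 62.3% ± 0.146 of cytoplasmic actin mRNA against ACTB. HSP90AB1 and HSP90AA1 held 51.5% ± 0.521 and 48.5% ± 0.521 per merged exon base, an order that depends on the length used: with the longest transcript HSP90AB1 held 44.2%. By longest transcript, the share of the largest member moved beyond its SD over libraries in 12 of 22 families. The largest such shift was 14.6 percentage points. For aldolase, lactate dehydrogenase and cytochrome oxidase subunit 6A, no share is given because fewer than 2 members with counts could be assessed.

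**Figure D4:**
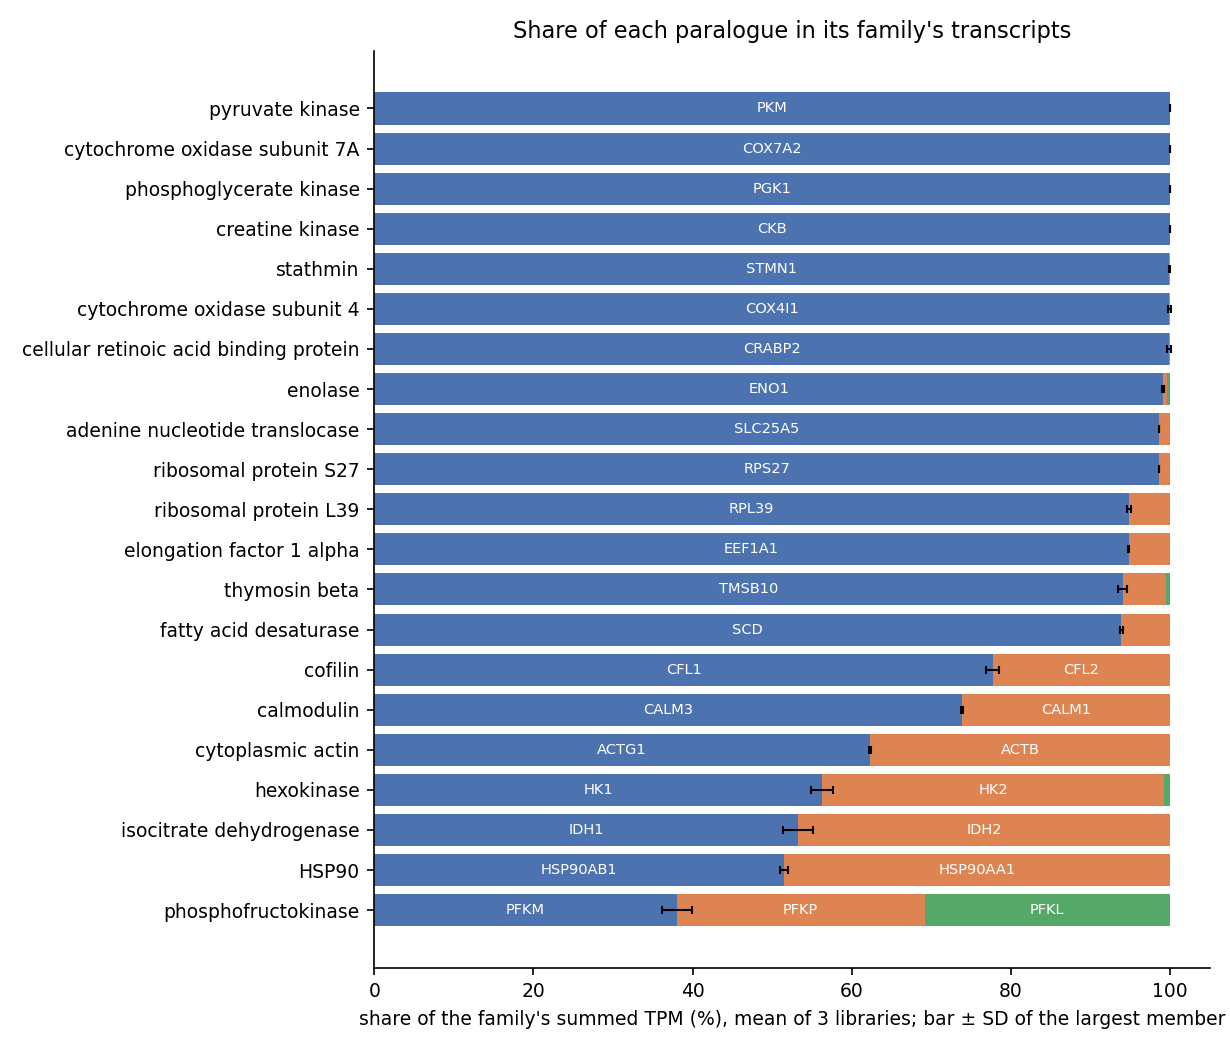
Share of assessable paralogues in their family's summed TPM for 21 families (horizontal axis, percent, mean of 3 wild type libraries; black bars are ± SD of the largest member). CKB, PKM and PGK1 fill nearly the whole bar, while PFKM, the largest of its family, holds 38.0%.

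Among cell-surface signalling genes, 37 of 52 assessable receptor tyrosine kinases were expressed (71.2%, near the 67% of all assessable protein-coding genes). Their median of 6.11 TPM lay below the 11.7 TPM of those genes. RYK (59.1, 57.5 and 56.4 TPM) and PTK7 (44.8, 43.3 and 42.3 TPM), which both bind WNT ligands, were highest. IGF1R stood at 42.3, 40.5 and 38.2 TPM, MET at 29.4, 27.3 and 28.5 TPM and FGFR3 at 23.5, 27.8 and 27.5 TPM. EGFR was lower, at 6.27, 6.01 and 6.01 TPM, and AXL, PDGFRB and KDR had 6, 4 and 7 counts. All 4 FGF receptors were expressed, and EPHA7 (29.7 ± 1.53 TPM) and EPHA6 (29.5 ± 3.0 TPM) were among the higher ephrin receptors, which guide cell contacts.

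Of 26 assessable WNT receptors and effectors, 25 were expressed. The list was led by WLS (124, 116 and 116 TPM), which carries WNT proteins to the surface of the cell that secretes them, and CTNNB1, beta-catenin (89.2, 92.4 and 89.2 TPM). LGR5, a receptor for R-spondins known from stem cells, stood at 28.9, 27.4 and 28.3 TPM. Of 19 WNT ligand genes, 8 were expressed, with WNT5A at 19, 18.6 and 20.7 TPM and WNT3A at 12.9, 9.64 and 8.76 TPM; WNT1 and WNT7A had 0 counts. Notch genes passed in 12 of 14 cases: NOTCH2 (45 ± 1.03 TPM) was the highest receptor and the target HEY1 stood at 185, 179 and 179.6 TPM. Hedgehog components passed in 8 of 11; SMO stood at 35.4 ± 1.20 TPM and the inhibitor SUFU at 26.7 ± 1.09 TPM, but the ligands SHH, IHH and DHH had 1, 5 and 12 counts. For TGF-beta and BMP signalling it was 25 of 29, with SMAD5, which carries BMP signals, at 63.7, 62.5 and 64.6 TPM, the ligand BMP7 at 44.9, 44.1 and 42.9 TPM and the receptor TGFBR2 at 13.3, 17.4 and 14.7 TPM.

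Of the list of innate sensing adaptors and cytosolic sensors, 9 of 21 assessable genes were expressed (42.9%). Of 7 assessable Toll-like receptors, TLR1 (1.32, 1.31 and 1.32 TPM) and TLR5 (0.833, 0.881 and 0.461 TPM) passed 1 CPM in every library. TLR3, which senses double-stranded RNA, had 19 counts, TLR7 1, and TLR2 and TLR8 0; TLR4, TLR6 and TLR9 could not be assessed. MYD88, the adaptor of most of them, had 14 counts. The DNA sensor gene CGAS had 4, its partner TMEM173 (STING) 24 and the RNA sensor IFIH1 4, while NLRP3, PYCARD and IRF7 had 0. Steps further down were expressed: the adaptor MAVS at 74.3, 73.0 and 70.6 TPM, the kinase TBK1 at 51.0, 44.2 and 48.9 TPM and IRF3 at 46.3, 43.1 and 43.4 TPM. EIF2AK2 (PKR), which binds double-stranded RNA, stood at 47.1 ± 0.932 TPM. Receptors for interferon were present too, IFNGR2 at 101 ± 3.46 TPM and IFNAR1 at 78.3 ± 0.670 TPM, together with JAK1 (76.1 ± 2.31 TPM). STAT5A had 0 counts whereas STAT5B stood at 35.5, 38.1 and 36.2 TPM.

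Of 47 assessable nuclear receptors, 34 were expressed. ESRRA (51.1 ± 2.71 TPM), NR2F2 (45.1 ± 1.58 TPM), NR2F1 (41.4 ± 1.1 TPM) and the glucocorticoid receptor NR3C1 (32.3, 33.2 and 31.2 TPM) were among the highest. The estrogen receptor ESR1 and the progesterone receptor PGR had 7 counts each. G protein-coupled receptors were sparse, with 24 of 70 expressed and a median of 0.235 TPM, while the G protein genes were expressed in 13 of 18 cases (GNAS 158 ± 2.97 TPM, GNAQ 47.2 ± 2.44 TPM). LPAR3 for lysophosphatidic acid (45.9, 42.6 and 39.8 TPM), ADORA2B for adenosine (37.7, 43.8 and 36.5 TPM) and the thrombin receptor F2R (38.9, 37.7 and 37.6 TPM) led. CHRM3 stood at 3.15, 3.07 and 3.29 TPM, and DRD1, HTR2A and CHRM2 had 0 counts.

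Ion channels matter because the line is a standard host for channel recordings. Voltage-gated potassium channels passed in 11 of 28 cases, with KCNQ5 at 20.5, 17.9 and 19.5 TPM. Sodium and calcium channels passed in 11 of 19; CACNA1H, a T-type calcium channel, stood at 18.6, 17.4 and 16.4 TPM and SCN8A at 6.90 ± 0.0935 TPM. Of 33 transmitter-gated channel genes, 10 passed, with CHRNA5 (85.5, 78.9 and 81.4 TPM) and GABRA3 (20.0, 21.2 and 18.2 TPM) far above the list's median of 0.0909 TPM. The proton-gated ASIC1 (37.5, 36.2 and 33.6 TPM), the mechanical channel PIEZO1 (30.2 ± 1.70 TPM), the volume-regulated LRRC8A (31.4 ± 1.66 TPM) and the store-operated ORAI1 (35.6 ± 1.21 TPM) were expressed, while CFTR had 2 counts.

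Among noncoding genes, 1506 of 15004 long noncoding genes were expressed. MALAT1, an RNA of nuclear speckles, stood at 1403, 1412 and 1448 CPM and NEAT1, of paraspeckles, at 242, 241 and 248 CPM, although the lysate had been spun. NORAD, a cytoplasmic RNA, stood at 178, 176 and 189 CPM. Transcripts that host small nucleolar RNAs were the highest of the processed transcripts: SNHG16 at 485, 497 and 475 CPM and GAS5 at 312, 307 and 317 CPM, with LRRC75A-AS1 (469.7 ± 23.2 CPM) between them. Among antisense genes, ENTPD1-AS1 (121 ± 6.86 CPM) and ZFAS1 (118 ± 5.14 CPM) led, and TUG1 stood at 125 ± 5.07 CPM. FIRRE, an X-linked RNA that anchors chromatin, reached 205, 185 and 189.5 CPM. TERT, the telomerase enzyme, stood at 3.11, 4.36 and 3.24 TPM, with 100 counts in all; TERC, its RNA, could not be assessed, and DKC1, which stabilises that RNA, stood at 295 ± 6.44 TPM. Pseudogenes were expressed in 378 of 15230 cases; CROCCP2 (121 ± 4.26 CPM) and ZNF271P (141 ± 2.36 CPM) were among the highest that could be assessed.

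The small RNAs themselves were mostly beyond the table. Of 1881 miRNA genes, 1265 (67.3%) lie wholly inside a same-strand gene and so could receive no count, and of 943 snoRNA genes, 581 (61.6%). Among free-standing small RNAs, the signal recognition particle RNA RN7SL3 stood at 1101, 1251 and 1203 CPM, the spliceosomal RNU4-2 at 553, 475 and 639 CPM, and the Y RNAs RNY1 and RNY4, which bind Ro protein, at 225 ± 50.3 CPM and 217 ± 64.8 CPM. The vault RNA VTRNA1-3 stood at 38.0, 38.1 and 38.0 CPM. RN7SK, RMRP and RPPH1, abundant RNAs in other cells, were listed at 0 and are not assessable. RN7SL1 and RN7SL2, named like RN7SL3, were likewise at 0 and not assessable. For RN7SL3 the share of 50-base words found in no other gene was 0.648. The rest of its words also stand in other genes, so the split of reads between them is uncertain.

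For microRNAs, only the host transcripts can be read. They are given with the mature sequences they carry because a host level shows the locus is transcribed; it does not measure the mature microRNA. MIR17HG (chromosome 13, 91347820 to 91354579, plus strand, hg38) stood at 92.6, 102 and 97.4 CPM, and DLEU2 (chromosome 13, 49982552 to 50125720, minus strand) at 99.5, 100.4 and 99.0 CPM. MIRLET7BHG reached 45.8, 47.5 and 52.2 CPM and MIR503HG 4.59, 5.43 and 6.39 CPM. MIR155HG and MIR205HG had 0 counts. Of 20 assessable hosts, 13 were expressed (65.0%), 4 were low and 3 undetected. Of all assessable long noncoding genes 11.5% were expressed, but the hosts are a chosen list. The sequences below are RefSeq entries (GRCh38.p14) that lie inside these hosts, with the seed, bases 2 to 8, in capitals. The arms shown are those usually loaded into Argonaute. In MIR17HG, miR-17 and miR-20a share 1 seed and miR-19a and miR-19b another; miR-15a and miR-16 of DLEU2 share AGCAGCA, miR-503 has AGCAGCG, and both let-7 members have the same seed.
hsa-miR-17-5p: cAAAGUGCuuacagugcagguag
hsa-miR-20a-5p: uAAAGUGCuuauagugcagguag
hsa-miR-18a-5p: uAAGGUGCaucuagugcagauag
hsa-miR-19a-3p: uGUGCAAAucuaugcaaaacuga
hsa-miR-19b-3p: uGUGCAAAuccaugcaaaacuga
hsa-miR-92a-3p: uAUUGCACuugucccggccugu
hsa-miR-15a-5p: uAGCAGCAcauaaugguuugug
hsa-miR-16-5p: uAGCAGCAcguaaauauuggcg
hsa-miR-503-5p: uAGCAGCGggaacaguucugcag
hsa-let-7a-5p: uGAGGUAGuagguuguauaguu
hsa-let-7b-5p: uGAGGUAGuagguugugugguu

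The promoters of expressed and undetected genes differed in composition. RefSeq promoters (GRCh38.p14), from 250 bases before to 50 bases after the annotated start, were matched by symbol to 15185 protein-coding genes, of which 13559 were assessable. The ratio of CpG dinucleotides observed to those expected from base composition, which is high in CpG islands, had a median of 0.849 in 9419 expressed genes and 0.231 in 1834 undetected ones. Low genes lay between, at 0.415. Within expressed genes the median rose with level, from 0.709 at 1 to 5 CPM to 0.901 at 100 CPM and over. These are descriptions of the matched genes, and no test was made.

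The motif TATAAA was sought on the gene's strand, within 40 to 16 bases before the start. It stood in 11.9% of undetected, 5.38% of low and 1.49% of expressed genes. Of all 13559 assessable protein-coding genes with a promoter, 3.56% held it, and of all 27305 promoters of the RefSeq table, 2.54%. The share did not fall steadily with level: it was 0.766% at 20 to 100 CPM, 2.14% at 100 CPM and over, and 7.00% in the 500 highest genes per length. On either strand of the whole window the shares were 24.6% and 5.33% for undetected and expressed genes. GGGCGG, the letters bound by Sp1-type factors, went the other way on either strand, 23.7% against 71.9%. Of the assessable protein-coding genes with a promoter, 60.4% held it, and of all promoters of the RefSeq table, 44.6%. CCAAT, on either strand, was about equal, 36.6% and 37.0%, beside 36.4% of the assessable genes and 35.7% of all promoters. A start of C followed by 4 pyrimidines, as in terminal oligopyrimidine mRNAs of the translation machinery, was counted too. It stood in 2.78% of undetected and 5.46% of expressed genes. Among the 500 highest genes per length the share was 17.2%, and among 58 ribosomal protein genes, taken by the same names as above, 60.3%. Of the assessable genes with a promoter, 4.77% had such a start, and of all promoters, 4.04%. Matches of different motifs were counted separately and may overlap. Of 44 histone gene promoters, at any level of expression, 52.3% held the TATA motif near the start and 86.4% held CCAAT.

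**Figure D5:**
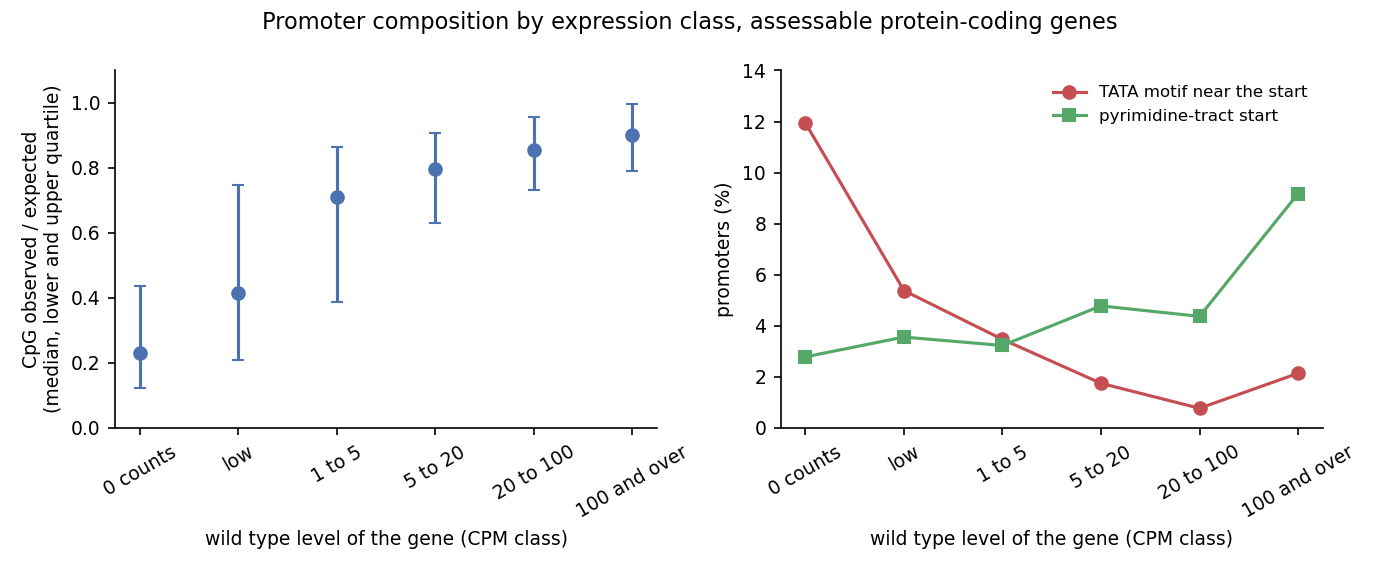
Promoter composition of assessable protein-coding genes by wild type level class (horizontal axes, CPM): CpG observed over expected (left, median with lower and upper quartile) and percent of promoters with the TATA motif near the start or a pyrimidine-tract start (right). The CpG median climbs from 0.231 to 0.901, and the TATA share is highest, 11.9%, where counts are 0.

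The stretches below, from RefSeq (GRCh38.p14), show these patterns in genes at both ends of the range; matches to the motifs named are in capitals and the last 10 bases lie at and after the start. The expressed examples come from translation, chromatin and serine synthesis. EEF2 (chr19:3985454-3985523, minus strand) holds TATAAA and a pyrimidine start, and RPS12 (chr6:132814509-132814578, plus strand) a pyrimidine start with no TATAAA. HIST1H3B (chr6:26032090-26032199, minus strand) holds TATAAA and CCAAT at 2 places, and PSAT1 (chr9:78296975-78297134, plus strand) CCAAT at 3 places and no TATAAA near the start. CYP3A4 (chr7:99784175-99784244, minus strand), GCG (chr2:162152238-162152307, minus strand), the glucagon gene, and MYH2 (chr17:10549649-10549718, minus strand), a muscle myosin, had 0 counts and hold TATAAA.
EEF2: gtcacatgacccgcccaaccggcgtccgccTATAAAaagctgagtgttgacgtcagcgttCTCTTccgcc
RPS12: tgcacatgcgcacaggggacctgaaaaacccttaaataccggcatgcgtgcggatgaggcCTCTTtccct
HIST1H3B: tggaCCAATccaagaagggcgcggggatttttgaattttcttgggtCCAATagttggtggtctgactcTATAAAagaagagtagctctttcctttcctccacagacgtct
PSAT1: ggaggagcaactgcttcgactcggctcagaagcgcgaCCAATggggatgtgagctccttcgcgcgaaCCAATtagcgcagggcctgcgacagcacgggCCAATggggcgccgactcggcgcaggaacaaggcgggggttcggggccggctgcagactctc
CYP3A4: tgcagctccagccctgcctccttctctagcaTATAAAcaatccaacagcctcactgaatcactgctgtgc
GCG: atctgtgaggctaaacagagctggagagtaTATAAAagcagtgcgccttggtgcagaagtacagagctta
MYH2: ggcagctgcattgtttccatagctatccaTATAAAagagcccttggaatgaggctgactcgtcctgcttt

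The 3 libraries were compared gene by gene with a chi-square test of their counts against the library totals, Benjamini-Hochberg adjusted over 14992 genes with an expected count of at least 5. It called 78 genes different (0.52%), and the mean chi-square per degree of freedom was 1.24, where counting error alone gives 1. Of the 78, 15 were RNAs under 200 bases long, all lowest in replicate 2. RNU5A-1, a spliceosomal RNA, was the most uneven (463, 284 and 477 CPM, adjusted p = 1.32e-85 by the chi-square test, a test across all genes). RNY4 (245, 143 and 262 CPM) and the mitochondrial tRNA MT-TV (48.6, 24.6 and 58.6 CPM) followed the same order, replicate 2 lowest. RNU4-2 (553, 475 and 639 CPM), RNY1 (242, 169 and 266 CPM), RNU5D-1, RNU5B-1, RNU4-1 and RF00003 did so as well, whereas RN7SL3, which is longer, was lowest in replicate 1 (1101, 1251 and 1203 CPM). Genes named for ribosomal proteins, pseudogene copies included, went the other way: 22 of the 23 that differed were highest in replicate 2, by small amounts (RPS27 at 651, 736 and 706 CPM). Genes under 200 bases together made up 3088, 2336 and 3396 CPM. Without replicate 2, 4 genes differed, without replicate 1, 27, and without replicate 3, 74. Over all expressed genes, the median coefficient of variation was 2.87% at 100 CPM and over and 19.3% at 1 to 5 CPM. The cause of the difference was not tested.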

How the data were processed

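Total cytoplasmic RNA of 3 wild type HEK293T cultures was sequenced after rRNA depletion with a stranded kit, per the labels' protocols. The deposited table holds the authors' whole-number counts per gene of GENCODE release 29. Per the submitters' processing notes, cutadapt 2.10, STAR 2.7.6a, featureCounts and hg38 were used; their settings are not given in the sources used here, and the counting over gene bodies was read from the counts. The rows were matched to the annotation by gene ID (58721 of 58721), and no column was left unmapped (0).

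From the counts, CPM, TPM on merged exon length, expression classes, overlap with same-strand genes and shares within families were computed in Python 3.11.15 (pandas 2.3.3, numpy 2.4.6, scipy 1.17.1, matplotlib 3.10.9). A chi-square test, tried on simulated counts, compared the libraries at an adjusted p threshold of 0.05. Scaling factors for the alternatives came from edgeR 4.0.16 and DESeq2 1.42.0 in R 4.3.3. No comparison between groups was made, and each library is a column of its own. Total counts of 5634648 to 7551825 set the floor at 0.397 to 0.532 CPM in 1 library.

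The members and the 55 gene lists (1110 entries, 1079 of 1083 distinct genes matched) were chosen with earlier results of these data known. Named genes were the 15 highest by CPM and by TPM, the defining and highest members of each list, the 8 highest of each noncoding type, the 10 most uneven between libraries and the family members. Of these, those needed for the account are printed, and other list members are examples picked after their values were seen. Alternatives varied the threshold, the library size, the length and the libraries used. Some members of the lists and families are counted but not reported by name here or drawn.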

Additional observations from a re-analysis of the deposited data

Results flagged for a closer look

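The count table has a row for a Renilla luciferase spike-in that held 1012 reads over the 3 wild type libraries (378, 363 and 271). It was singled out because the row lies outside the measured genes, and 3 counts are the most that a count of 0 allows. The labels' protocol names spike-ins of GFP and firefly luciferase only. The GFP row held 337, 363 and 285 reads and the firefly luciferase row 62, 64 and 31, so the Renilla row was near the GFP row in each library. The other spike-in row, named Ribo, held 0 reads. No spike-in row entered any level given above.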

How the results depend on the processing

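Of the alternatives tried, 6 settings of threshold, library size or length left the number of expressed genes (14013) within 1.5 times, from 11298 at 5 CPM to 15439 at 0.5 CPM, and 14235 to 14267 with 1 replicate left out. It fell to 8406 when genes whose exons overlap an exon of another counted gene were dropped. Undetected genes numbered 32945 in all, 34207 to 34646 with 1 replicate left out, 4066 among protein-coding genes and 21053 among assessable genes. Genes that differed between libraries numbered 78, and 4 to 74 with 1 replicate left out. The difference in median promoter CpG ratio between expressed and undetected genes was 0.618. It was 0.628 with expression set at 5 CPM, 0.579 with up to 3 counts taken as undetected, 0.607 to 0.610 with 1 replicate left out and 0.548 over all protein-coding genes with a promoter. Families with 1 member above 90% numbered 15, against 16 by longest transcript and 14 by CPM. At 5 CPM, the count of expressed members moved by over 1.5 times in 18 of 55 lists, downward in all 18, among them G protein-coupled receptors (15 expressed) and Toll-like receptors (0). The alternatives restricted to assessable genes, genes of at least 200 bases, free exon bases and all promoters were chosen after seeing the data. No paired analysis was possible because only 1 group was described. Genes at 1 to 5 CPM rest on few counts, genes within same-strand neighbours cannot be judged at any depth, and small RNAs differ between libraries.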
